A study of Bos taurus with 30 samples.

Results

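Interferon-response genes other than the classical antiviral effectors were measured in bovine endometrial epithelial and stromal cells kept under flow in a microfluidic device. The group holds the chains of the type I interferon receptor, the transcription factors that carry its signal, the intracellular sensors of foreign nucleic acid and other genes that interferon switches on. Its 40 genes were named by symbol, and 37 of them had a row in the count tables of 27607 genes through the gene names that the authors paired with the Ensembl identifiers. No value for DDX60, BST2 or PLSCR1 is given, since these symbols had no matching row in the tables used here. Of the 37 genes, 36 were annotated as protein-coding, and the row of SAMD9 (ENSBTAG00000053050) was annotated as a pseudogene, so that its values stand apart from the counts below. The genes were grouped by function, with earlier results of these data known.

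Cells came from the uteri of nonpregnant cows early in the luteal phase, and the stromal population was enriched for stromal cells without being pure. Epithelial cells grew in the upper chamber and stromal cells in the lower chamber of the device, separated by a porous membrane, and RNA was taken from each after 72 h. In the glucose experiment the medium held 5 mM glucose, the physiologic control, or 50 mM glucose. In the insulin experiment all groups had the physiologic glucose concentration, with vehicle (acetic acid in PBS), 1 ng/mL insulin or 10 ng/mL insulin. Each cell type had 3 replicates in each of these conditions, which gave 10 groups and 30 libraries. No group received interferon or carried an embryo. The labels do not state whether the replicates came from separate cows, so that p-values measure the spread between these samples.

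Type I interferons bind a receptor made of IFNAR1 and IFNAR2, and the kinases attached to it phosphorylate STAT2, among other proteins. STAT2 joins IRF9 in a complex that binds interferon-stimulated response elements and switches on many genes. Cytosolic RNA is recognised by the helicases RIG-I (DDX58), MDA5 (IFIH1) and LGP2 (DHX58), which lead through MAVS to the interferon regulatory factors and to interferon itself. The sensors, IRF7, STAT2 and IRF9 are themselves interferon-induced, so the pathway raises its own components. In the cow, the elongating embryo secretes interferon tau, a type I interferon that acts through this receptor on the endometrium around maternal recognition of pregnancy.

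The libraries held 13493503 to 16647701 counted reads in the glucose experiment and 8826470 to 13214728 in the insulin experiment. A count of 0 allows up to 3 counts, for counting error only, which is 0.18 CPM in the largest library and 0.34 CPM in the smallest, where CPM is the count scaled to a library total of 1000000 reads. Some libraries held markers of the other cell type. The 30 epithelial marker genes summed to 10218 to 18017 CPM in the glucose epithelial libraries. They summed to 104 to 782 CPM in stromal libraries at 5 mM glucose, and to 1769, 1146 and 6795 CPM in replicates 1, 2 and 3 at 50 mM. Stromal marker genes reached only 28184 CPM in replicate 3 at 50 mM, against 71194 to 92877 CPM in the other glucose stromal libraries. In the insulin experiment, stromal replicate 2 of the vehicle group had 462 CPM and replicate 1 of the 10 ng/mL group 406 CPM of epithelial markers, and the remaining stromal libraries had 35.3 to 69.0 CPM. Sums over the immune markers, of which 8 of 16 symbols matched a row, were 3.34 to 22.4 CPM in all 30 libraries. Epithelial replicate 2 at 5 mM glucose also stood apart, with the highest sum of epithelial markers and the lowest of its group's 3 values for 28 of the 36 genes. The median gene had 31.4% there of the mean of replicates 1 and 3. Since these are bulk libraries, fewer cells of one type and less RNA per cell cannot be told apart.

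The clearest pattern in these genes was the difference between cell types. In the vehicle group of the insulin experiment, 29 of the 35 genes tested were called higher in epithelial than in stromal cells and none was called lower, with a median log2 fold change of 2.37. Calls required an adjusted p under 0.05 (edgeR, quasi-likelihood, corrected by Benjamini and Hochberg over every gene tested) and a difference of more than 0.1 on the log2 scale in either direction. Of all 12876 protein-coding genes tested, 28.2% had a higher call in epithelial cells and 27.8% in stromal cells, and their median was -0.0022. Every later share of all genes is likewise of the protein-coding genes tested in its own comparison and fit. All 29 genes called had their 3 epithelial values above their 3 stromal values, as did 36.5% of all genes tested, called or not. The 29 were picked by their calls in these same libraries, so this adds no further support. The labels do not state whether both experiments used cells of the same cows. The separate libraries at 5 mM glucose gave 19 of 34 genes called higher in epithelial cells and none lower, with a median of 2.09. There, 10.8% of all tested genes had a higher call in epithelial cells and 10.7% in stromal cells. All 19 were among the 29 of the vehicle group, which is 65.5% of that list and 100% of the list at 5 mM. The same overlap over all genes was not counted, so this one is given as a description. The 10 called in the vehicle group only were EIF2AK2, HERC5, IFI44, IFNAR2, IRF1, PARP14, RTP4, SP110, STAT2 and TRIM25. At 5 mM, SP110 and PARP14 were also called by DESeq2 (adjusted p = 0.0147 and 0.0303), and HERC5, PARP14 and SP110 without replicate 2. Of the vehicle calls, those of IFI44, IFI44L, RTP4, XAF1 and ZBP1 concern genes whose stromal values were all under the count filter's minimum. They entered the test through their epithelial level. The same held for IFI44L at 5 mM glucose, for IFI44L and IFIH1 at 1 ng/mL insulin and for IFI44, IFI44L, RTP4 and XAF1 at 10 ng/mL. Further genes, with only some stromal values under that minimum, also passed only through their epithelial level. Among them were IFIH1 with vehicle and XAF1 and ZBP1 at 5 mM glucose.

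**Figure D1:**
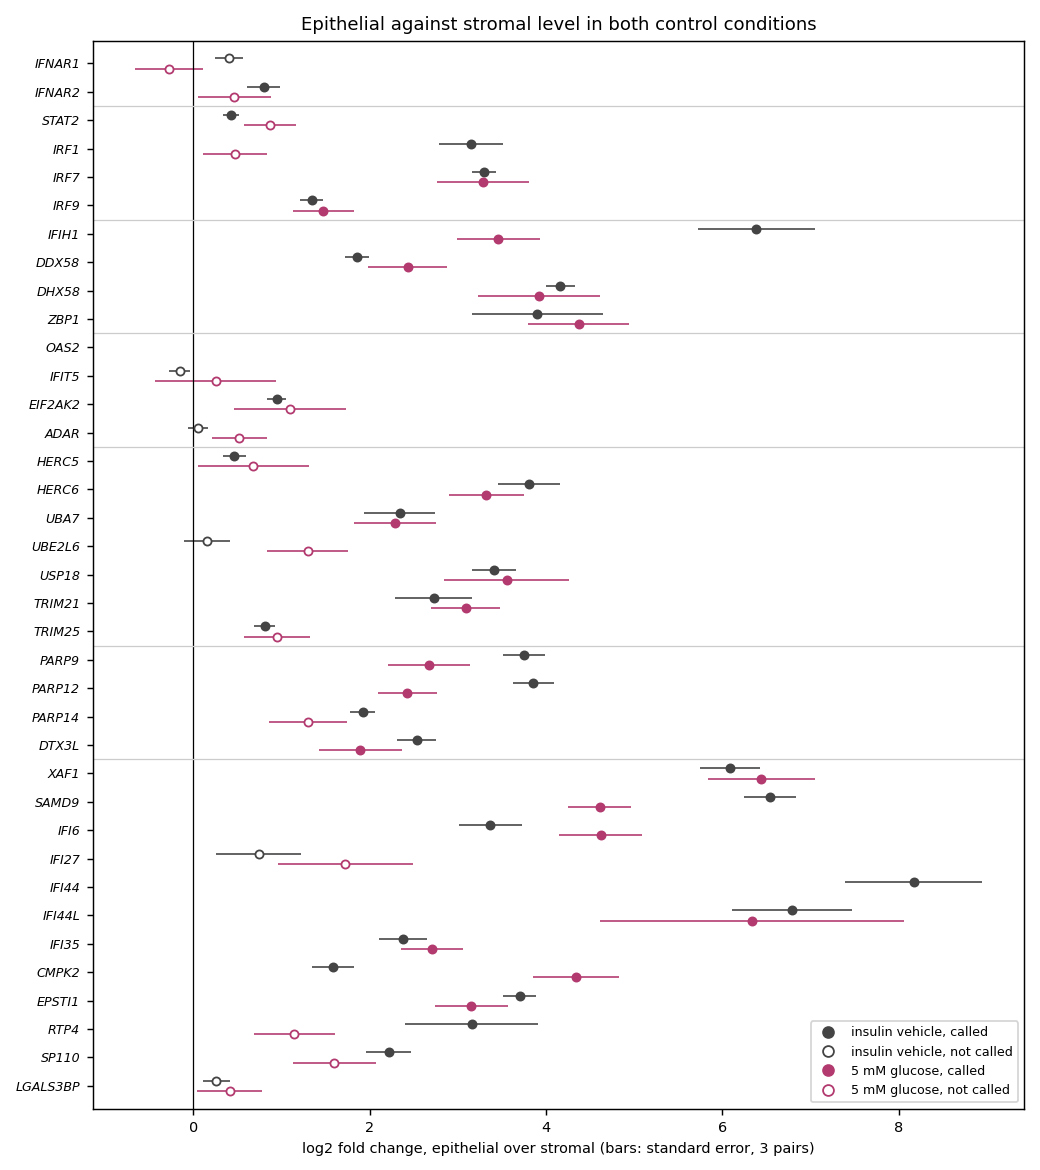
Log2 fold change of epithelial over stromal cells for each interferon-response gene in the insulin vehicle group and at 5 mM glucose, with bars for the standard error and filled points for genes called. Points lie right of 0 for 34 of 35 protein-coding genes tested in the vehicle group and for 33 of 34 at 5 mM glucose, and IFNAR1 lies at 0.41 and -0.28 and IFNAR2 at 0.80 and 0.46.

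The remaining conditions repeated the direction with fewer calls than the vehicle group. At 1 ng/mL insulin, 23 of 32 genes were called higher in epithelial cells (29.9% of all tested genes) and IFIT5 was called higher in stromal cells (29.5% of all). At 10 ng/mL insulin, 26 of 34 were called higher in epithelial cells (27.3% of all) and none higher in stromal cells (27.6% of all). The median log2 fold changes were 2.03 and 2.20. In total, 23 genes were called in all 3 insulin conditions, and the share of all genes called in all 3 was not counted. At 50 mM glucose, 1 of 36 genes was called higher in epithelial cells (6.57% of all) and none in stromal cells (11.0% of all), and the median was 0.65. That gene was IFI35 (log2 fold change 1.18, SE 0.232, adjusted p = 0.0299). It lost the call without the replicate block (adjusted p = 0.0573) and without replicate 1 (0.235), and the Wald test of DESeq2 called 12 of the 36 genes higher in epithelial cells, as it did 11.0% of all genes. At 50 mM glucose the 29 epithelial markers tested also stood closer to the stromal level, with a median of 2.23 against 7.24 at 5 mM. ADAR, IFI27, IFNAR1, LGALS3BP, OAS2 and UBE2L6 were called in none of the 5 conditions.

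**Figure D2:**
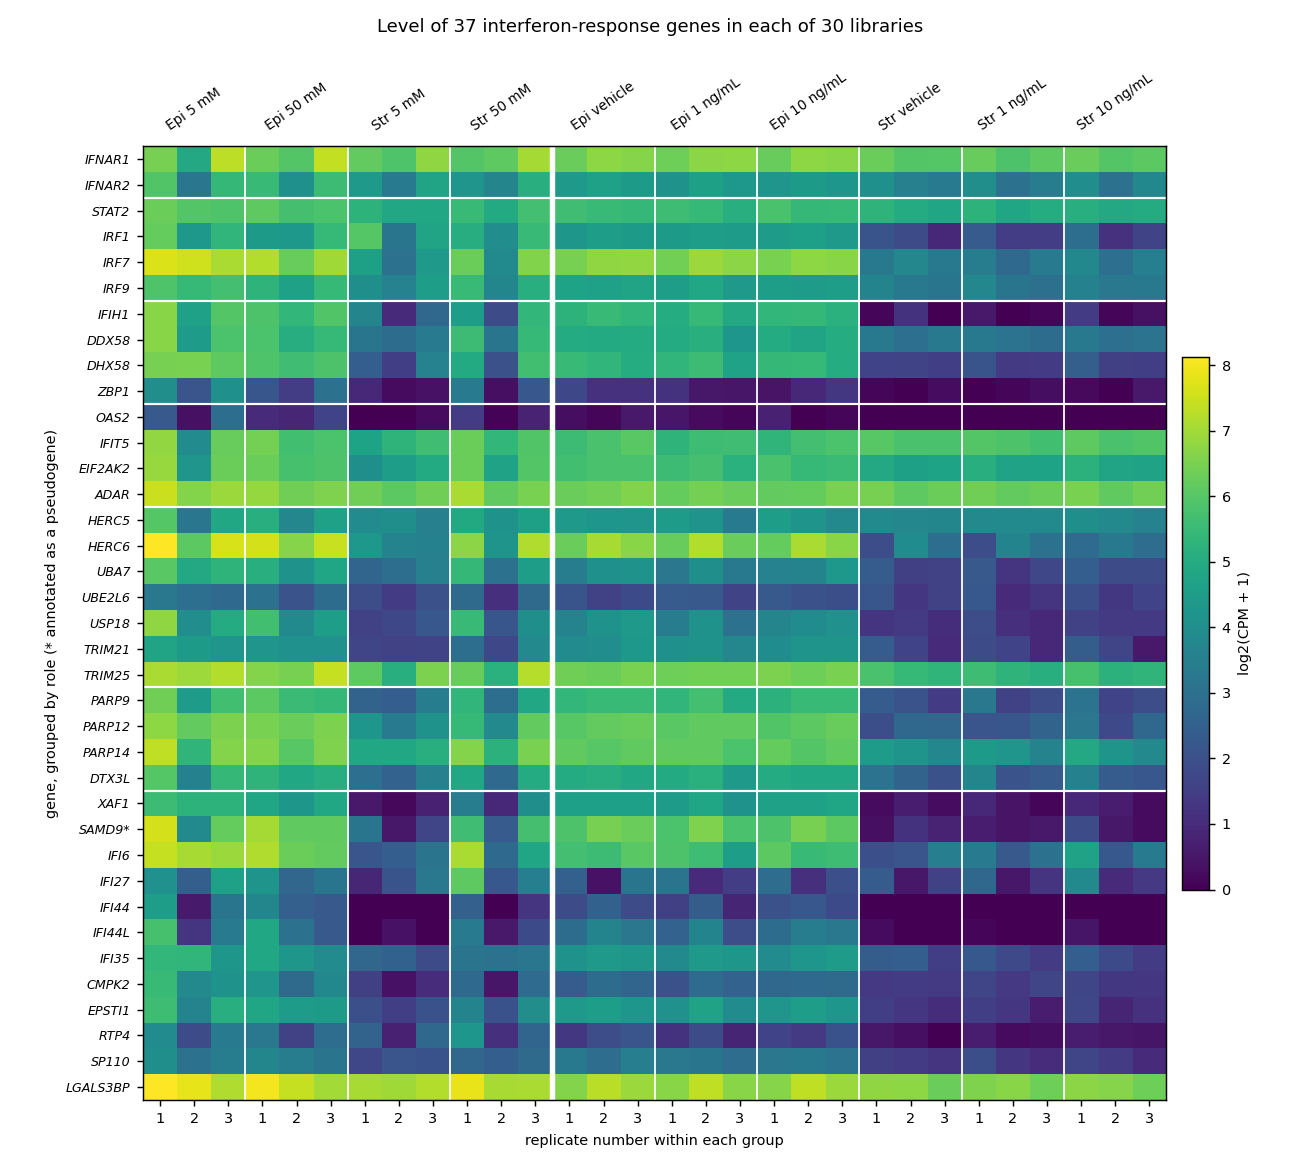
Level of each of the 37 genes in each of the 30 libraries as log2(CPM + 1), with genes in rows by role and libraries in columns by cell type and condition. Epithelial libraries are high and stromal libraries low for most genes, except for the stromal libraries of replicates 1 and 3 at 50 mM glucose and for the low epithelial library of replicate 2 at 5 mM.

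Both receptor chains were detected in both cell types. IFNAR1 (ENSBTAG00000021819), the low-affinity chain, had 76.5, 106 and 99.2 CPM in epithelial replicates 1, 2 and 3 of the vehicle group and 77.3, 60.6 and 62.5 CPM in the stromal ones. Its groups overlapped, and its log2 fold change of 0.41 (SE 0.155, adjusted p = 0.0817) did not pass the test, but passed without the replicate block (adjusted p = 0.0409) and without replicate 1 (0.0424). At 5 mM glucose IFNAR1 had 86.5, 29.1 and 157 CPM in epithelial and 71.1, 58.3 and 110 CPM in stromal cells, with a log2 fold change of -0.28 (SE 0.384, adjusted p = 0.673) that turned to 0.15 without replicate 2. IFNAR2 (ENSBTAG00000015212), the chain that binds interferon with high affinity, had 19.8, 24.2 and 20.4 CPM in epithelial and 16.1, 10.8 and 8.88 CPM in stromal cells of the vehicle group. All of its epithelial values were above its stromal values, with a log2 fold change of 0.80 (SE 0.190, adjusted p = 0.0218), and without replicate 2 or 3 the call was lost (adjusted p = 0.0816 and 0.0851). The 5 mM libraries gave 0.46 (SE 0.413, adjusted p = 0.497).

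The transcription factors ranged from a small to a large difference. STAT2 (ENSBTAG00000004380), a transcription factor of the interferon-activated complex, had 49.1, 43.9 and 41.9 CPM in epithelial and 37.7, 31.2 and 27.0 CPM in stromal cells of the vehicle group. The groups did not overlap, and the log2 fold change was 0.42 (SE 0.0908, adjusted p = 0.016), which did not pass in any of the 3 fits that left out 1 replicate (adjusted p from 0.0631 to 0.0732). IRF9 (ENSBTAG00000005816), the DNA-binding part of that complex, had 25.5, 24.4 and 26.0 CPM in epithelial and 11.6, 8.87 and 8.02 CPM in stromal cells. Its log2 fold change was 1.34 (SE 0.130, adjusted p = 0.00202) in the vehicle group and 1.47 (SE 0.345, adjusted p = 0.0307) at 5 mM glucose, where leaving out replicate 1 or 3 ended the call (adjusted p = 0.0956 and 0.0955). IRF7 (ENSBTAG00000047680), the factor that amplifies interferon production, had 87.7, 110 and 112 CPM in epithelial against 8.66, 12.5 and 8.67 CPM in stromal cells. In the 5 mM libraries it had 205, 187 and 136 CPM against 23.5, 7.29 and 19.8 CPM. The groups lay far apart in both experiments, with log2 fold changes of 3.30 (SE 0.138, adjusted p = 0.000899) and 3.29 (SE 0.518, adjusted p = 0.0101). IRF1, which also answers interferon gamma, gave 3.15 in the vehicle group (adjusted p = 0.00282), where its stromal level was 0.867 to 3.32 CPM. The stromal values of IRF1 at 5 mM glucose were 63.0, 7.98 and 26.2 CPM, overlapping the epithelial values of 73.2, 19.4 and 39.6 CPM, and it was not called (log2 fold change 0.47, adjusted p = 0.434).

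All 4 sensors of nucleic acid were called higher in epithelial cells with vehicle and at 5 mM glucose. At 1 and 10 ng/mL insulin all 3 that could be tested were called, and at 50 mM glucose none of the 4, of which 0 had an unadjusted p-value under 0.05 by edgeR, while DESeq2 called IFIH1 there. IFIH1 (ENSBTAG00000008142), which encodes the long-RNA sensor MDA5, had 36.9, 43.2 and 40.0 CPM in epithelial cells of the vehicle group. In the stromal cells it had 0.0875, 1.27 and 0 CPM, where the highest value belongs to the library with 462 CPM of epithelial markers. The log2 fold change was 6.39 (SE 0.665, adjusted p = 0.00235). In the glucose experiment at 5 mM, IFIH1 had 103, 24.4 and 60.4 CPM in epithelial and 12.1, 0.943 and 5.55 CPM in stromal cells, with a log2 fold change of 3.46 (SE 0.468, adjusted p = 0.00721). DDX58 (ENSBTAG00000003366), which encodes RIG-I, had 31.0, 30.2 and 30.8 CPM in epithelial and 8.75, 6.79 and 8.67 CPM in stromal cells of the vehicle group. It thus had a clear stromal level in every library, and its log2 fold change was 1.85 (SE 0.137, adjusted p = 0.00127) in the vehicle group and 2.43 (SE 0.451, adjusted p = 0.0157) at 5 mM glucose. DHX58 (ENSBTAG00000046580), which encodes LGP2, a regulator of the other helicases, had 44.0, 40.1 and 31.5 CPM against 2.10, 2.17 and 1.84 CPM in the vehicle group. Its log2 fold change was 4.16 (SE 0.164, adjusted p = 0.000899), and 3.92 (SE 0.689, adjusted p = 0.0135) at 5 mM glucose. ZBP1, a sensor of left-handed nucleic acid, was low throughout, with 2.43, 1.24 and 1.22 CPM in epithelial and 0.0875, 0 and 0.217 CPM in stromal cells of the vehicle group. That call was lost without replicate 1 (adjusted p = 0.0869). ZBP1 at 5 mM glucose had 15.1, 3.41 and 15.8 CPM against 0.912, 0.189 and 0.305 CPM (log2 fold change 4.37, SE 0.573, adjusted p = 0.00687).

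**Figure D3:**
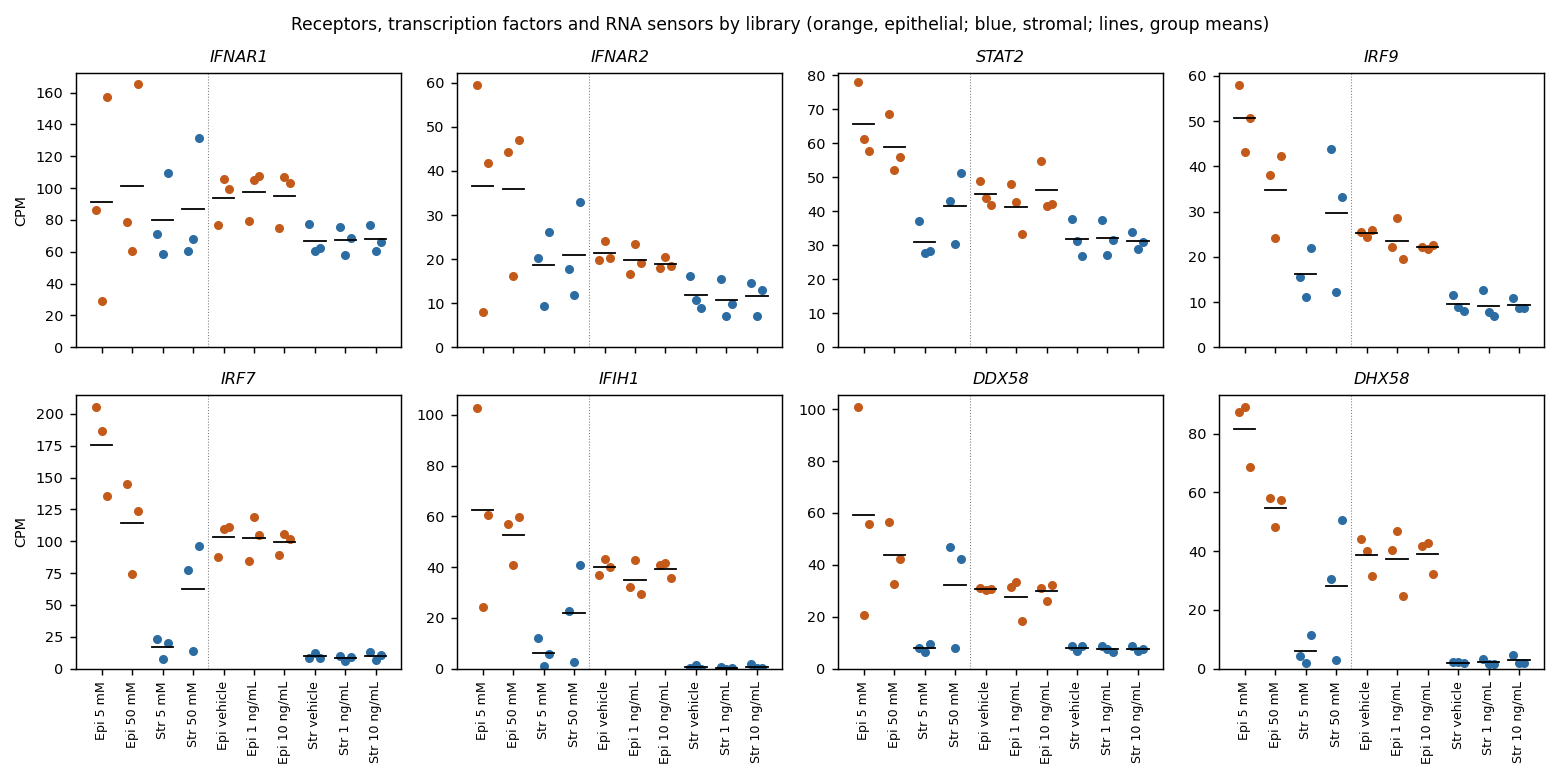
Level (CPM, linear scale starting at 0) of 8 genes of the receptor, its transcription factors and the RNA sensors in each library by condition, with epithelial libraries in orange and stromal libraries in blue and a line at each group mean. The cell types overlap for IFNAR1 and are separate in every insulin condition for IRF7, IFIH1, DDX58 and DHX58, and at 50 mM glucose the stromal replicates 1 and 3 lie well above replicate 2.

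Of the 4 genes whose products act on RNA, EIF2AK2 alone was called in the vehicle group. IFIT5, which binds RNA ends, had 46.7, 54.6 and 64.7 CPM in epithelial and 64.1, 54.8 and 55.0 CPM in stromal cells of the vehicle group, with overlapping groups (log2 fold change -0.16, adjusted p = 0.326). At 1 ng/mL insulin its epithelial values of 38.3, 47.8 and 48.3 CPM were all below its stromal values of 61.3, 56.8 and 50.4 CPM. This was the only member called higher in stromal cells (log2 fold change -0.44, SE 0.133, adjusted p = 0.0349), and the call was lost without replicate 1 (adjusted p = 0.108) and with DESeq2 (0.116). ADAR, the RNA-editing enzyme, had 75.7, 84.4 and 94.8 CPM in epithelial and 87.9, 68.0 and 77.5 CPM in stromal cells of the vehicle group. EIF2AK2, the kinase PKR that halts translation on double-stranded RNA, had 49.5, 54.9 and 54.7 CPM in epithelial and 29.0, 23.8 and 25.5 CPM in stromal cells, and was called (log2 fold change 0.95, SE 0.105, adjusted p = 0.00267). OAS2, an oligoadenylate synthetase, was too low to be tested in 4 of the 5 conditions. It had no count in the 9 stromal insulin libraries. Its epithelial mean of 0.269 CPM in the vehicle group was 2.85 times the 3 counts over the group that such a result allows. The epithelial counts were low as well, at most 6 in the 9 insulin libraries with 1 library at 0, so no minimum difference follows.

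Enzymes that attach or remove the ubiquitin-like protein ISG15, or ubiquitin, were mostly higher in epithelial cells, with 6 of 7 called in the vehicle group and 4 of 7 at 5 mM glucose. HERC6, a member of the HERC ligase family, had 75.9, 133 and 103 CPM in epithelial and 2.80, 14.4 and 6.72 CPM in stromal cells of the vehicle group. At 5 mM glucose HERC6 had 279, 66.8 and 198 CPM against 19.2, 11.3 and 10.9 CPM (log2 fold change 3.32, SE 0.427, adjusted p = 0.00671). Its neighbour HERC5 differed far less, with 19.8, 18.2 and 17.8 CPM against 13.4, 12.5 and 12.4 CPM in the vehicle group (log2 fold change 0.47, adjusted p = 0.034). The HERC5 call was lost with DESeq2 (adjusted p = 0.0875) and in each fit that left out 1 replicate (adjusted p from 0.0659 to 0.138). USP18, the protease that removes ISG15 and restrains receptor signaling, had 11.5, 16.7 and 19.8 CPM against 1.40, 1.63 and 1.08 CPM in the vehicle group. TRIM21, an intracellular antibody receptor and ubiquitin ligase, had 25.7, 20.7 and 18.0 CPM against 2.22, 2.01 and 2.20 CPM at 5 mM glucose (log2 fold change 3.09, SE 0.387, adjusted p = 0.00635). UBA7, the enzyme that activates ISG15, was called in both experiments (log2 fold changes 2.34 and 2.29). TRIM25, the ligase that activates RIG-I, had a small difference in the vehicle group (0.81, adjusted p = 0.00476). UBE2L6, the conjugating enzyme for ISG15, had 3.37, 2.07 and 2.53 CPM against 3.50, 1.45 and 2.06 CPM in the vehicle group and was not called there.

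The ADP-ribosylation genes, whose products modify proteins with ADP-ribose or bind such marks, were all called higher in epithelial cells of the vehicle group. PARP12 had 63.8, 71.4 and 74.7 CPM in epithelial and 2.89, 5.70 and 5.42 CPM in stromal cells (log2 fold change 3.86, SE 0.236, adjusted p = 0.000978). PARP9 had 41.2, 43.6 and 44.3 CPM against 4.20, 3.26 and 1.73 CPM (log2 fold change 3.75, SE 0.242, adjusted p = 0.00106). Its partner DTX3L, a ubiquitin ligase that binds PARP9, gave 2.53 (adjusted p = 0.0016), and PARP14 gave 1.92 (adjusted p = 0.00128). PARP12 (2.43), PARP9 (2.67) and DTX3L (1.89) were also called at 5 mM glucose, and PARP14 was not (1.30, adjusted p = 0.0957). DTX3L lost its call there without replicate 1 (adjusted p = 0.140) or 3 (0.0845), and PARP14 gained one with DESeq2 (0.0303) and without replicate 2 (0.0289).

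Among the other response genes, XAF1, which counters an inhibitor of apoptosis, gave the steadiest epithelial values. XAF1 (ENSBTAG00000011343) had 23, 23.2 and 23.1 CPM in epithelial and 0.175, 0.543 and 0.217 CPM in stromal cells of the vehicle group. At 5 mM glucose it had 46.7, 37.2 and 37.3 CPM against 0.456, 0.126 and 0.671 CPM. The groups were separate in both experiments, with log2 fold changes of 6.09 (SE 0.337, adjusted p = 0.000915) and 6.44 (SE 0.604, adjusted p = 0.00543). EPSTI1, named for its induction in epithelial cells by stromal contact, gave 3.70 (SE 0.189, adjusted p = 0.000913) and 3.15 (SE 0.413, adjusted p = 0.00686). IFI6, a mitochondrial and endoplasmic reticulum protein, had 169, 134 and 120 CPM in epithelial and 3.45, 4.34 and 7.69 CPM in stromal cells at 5 mM glucose (log2 fold change 4.62, SE 0.470, adjusted p = 0.00543). CMPK2, a nucleotide kinase of mitochondria, gave 4.34 at 5 mM glucose (SE 0.483, adjusted p = 0.00543) and 1.58 in the vehicle group (SE 0.238, adjusted p = 0.00567). IFI44 had no count in the 3 stromal vehicle libraries or the 3 stromal libraries at 5 mM glucose. Against 3 counts over each of these groups, its epithelial means of 3.38 and 10.3 CPM were at least 35.7-fold and at least 163-fold higher. The 10.3 CPM at 5 mM glucose rests on 22.2, 0.519 and 8.02 CPM. IFI27, a gene often used as an interferon marker, had 4.63, 0.310 and 7.97 CPM in epithelial and 4.11, 0.453 and 2.06 CPM in stromal cells of the vehicle group. LGALS3BP, a secreted glycoprotein, had 97.0, 154 and 120 CPM against 109, 107 and 76.0 CPM. Both overlapped between cell types. IFI35, a leucine zipper protein, had 17.1, 19.9 and 18.9 CPM against 4.29, 4.35 and 1.84 CPM in the vehicle group (log2 fold change 2.37, adjusted p = 0.00286). SP110, a protein of nuclear bodies, had 8.70, 6.51 and 10.0 CPM against 1.92, 1.72 and 1.41 CPM (2.22, adjusted p = 0.00289). RTP4 gave 3.16 (adjusted p = 0.022, and 0.0608 without replicate 2) and IFI44L 6.79 (adjusted p = 0.00212), with stromal values of 0 to 0.437 CPM. The SAMD9 row had 57.7, 87.8 and 76.9 CPM in epithelial and 0.262, 1.27 and 0.758 CPM in stromal cells of the vehicle group (log2 fold change 6.54, SE 0.298, adjusted p = 0.000899).

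The comparison of 50 with 5 mM glucose asked whether high glucose alters these genes. In stromal cells, all 33 genes tested had a positive log2 fold change (46.0% of all genes tested), with a median of 1.22 against -0.025 over all genes, and none was called (0.00% of all genes, smallest adjusted p of a member 0.696). IFI44, IFI44L and OAS2 were too low to be tested. An unadjusted p-value under 0.05 with a higher level was found for 16 of the 33 genes, as for 3.77% of all genes. The level was higher at 50 mM in 3 of 3 pairs for 27 of the 33, as for 23.4% of all genes, and all 3 values at 50 mM were above those at 5 mM for 7 genes, as for 4.85% of all genes. The Wald test of DESeq2 called 7 of the 36 genes, all higher at 50 mM, against 1.34% of all genes called higher by it. They were DHX58, EPSTI1, HERC6, IFI44L, IFIH1, IRF7 and XAF1. In each pair the median difference in log2(CPM + 1) over the 36 genes was 1.64 in replicate 1, 0.21 in replicate 2 and 1.29 in replicate 3. The fitted median was 0.75 without replicate 1 and 1.82 without replicate 2.

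XAF1 stromal levels were 0.456, 0.126 and 0.671 CPM at 5 mM and 9.64, 0.887 and 15.7 CPM at 50 mM. All 3 values at 50 mM were above those at 5 mM, and XAF1 had the smallest p-value and the highest log2 fold change of the members, 4.15 (SE 0.384, adjusted p = 0.696). The count filter's minimum was 0.640 CPM here, which only the 0.671 CPM of the 5 mM values passed. XAF1 thus entered this test through its 50 mM level. IRF7 had 23.5, 7.29 and 19.8 CPM at 5 mM and 77.5, 13.4 and 96.4 CPM at 50 mM (log2 fold change 1.59, SE 0.303, adjusted p = 0.696). Replicate 2 at 50 mM was below 2 of the 3 values at 5 mM. The sensors showed the same arrangement. IFIH1 had 12.1, 0.943 and 5.55 CPM at 5 mM and 22.5, 2.73 and 41.0 CPM at 50 mM (1.73, SE 0.425). DDX58 had 7.95, 6.29 and 9.52 CPM at 5 mM and 46.8, 7.91 and 42.3 CPM at 50 mM (1.66, SE 0.521). DHX58 had 4.43, 1.82 and 11.3 CPM at 5 mM and 30.6, 3.07 and 50.5 CPM at 50 mM (1.93, SE 0.450). In all 3 sensors the levels at 50 mM were high in replicates 1 and 3, while replicate 2 stayed within the range of the 5 mM group. ZBP1 gave 2.86 (SE 0.623), EPSTI1 1.66 (SE 0.363) and STAT2 0.34 (SE 0.170), and IRF9 gave 0.69 (SE 0.325). The receptor chains were near 0, with 0.02 (SE 0.118) for IFNAR1 and 0.10 (SE 0.137) for IFNAR2. IFI27 was high in a single library, with 0.847, 3.33 and 8.54 CPM at 5 mM and 68.9, 3.75 and 10.4 CPM at 50 mM. IFI44 went from no count at 5 mM to 4.63, 0 and 1.38 CPM at 50 mM, a mean at least 31.8-fold higher than 3 counts over the 5 mM group.

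**Figure D4:**
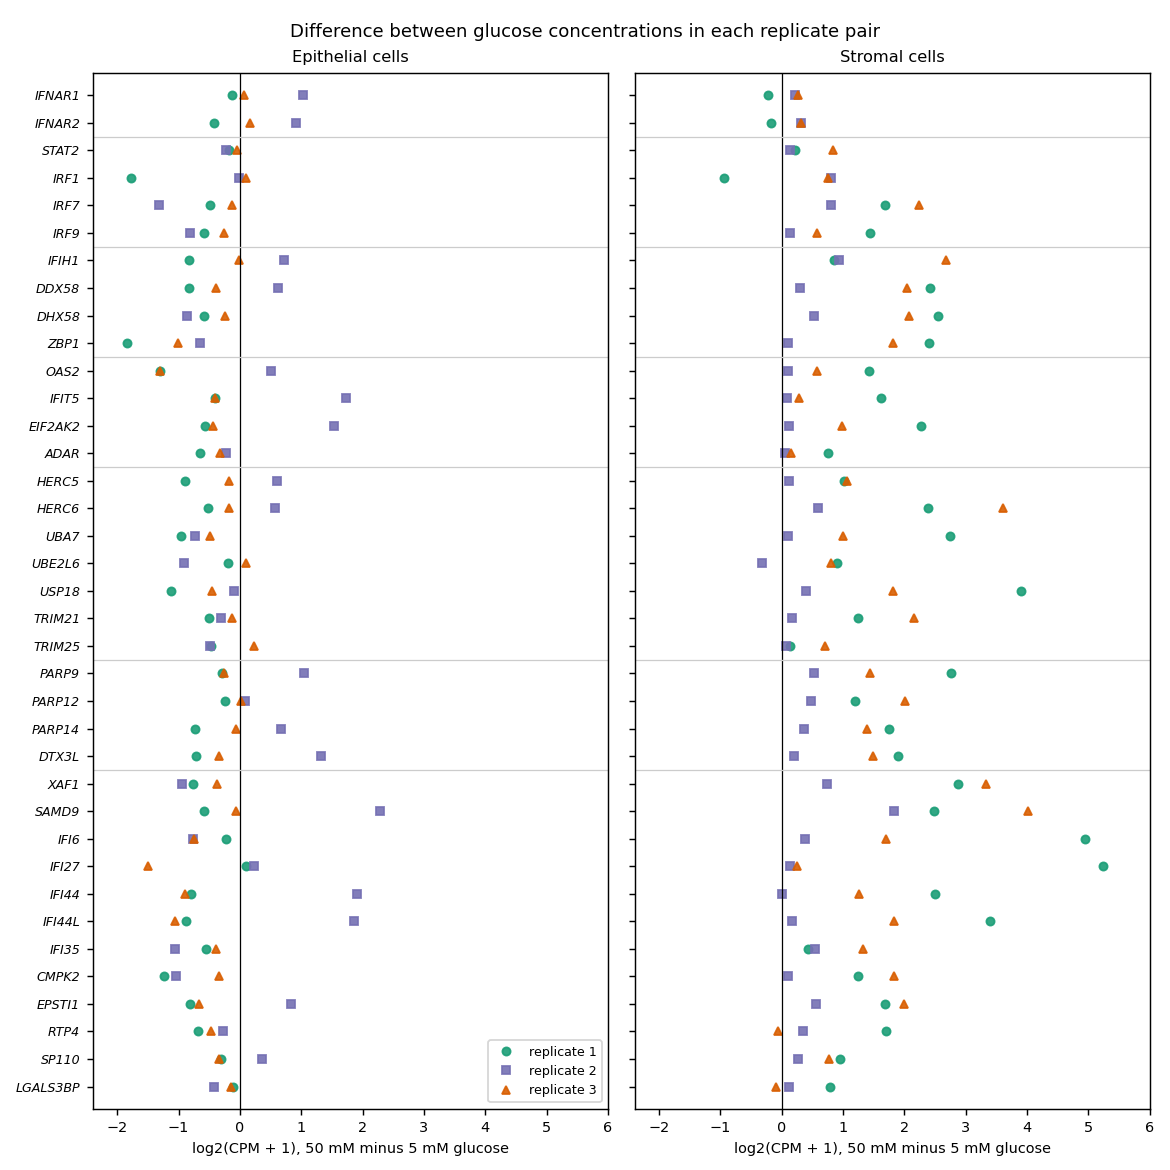
Difference between 50 and 5 mM glucose in log2(CPM + 1) within each replicate number, for each gene in epithelial (left) and stromal cells (right). Stromal replicates 1 and 3 lie right of 0 for most genes with replicate 2 nearer to 0, and in epithelial cells replicates 1 and 3 lie mostly left of 0 while replicate 2 falls on both sides.

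The stromal libraries at 50 mM also held more epithelial marker RNA. All 28 epithelial markers tested were higher at 50 mM in 3 of 3 stromal pairs (median log2 fold change 4.42), and 27 of 28 stromal markers had a negative log2 fold change (median -0.53). The level of each gene in a stromal library was therefore set against the epithelial library of the same condition and replicate number, for the 29 genes called higher in epithelial cells of the vehicle group and for the 30 epithelial markers. In stromal replicate 1 at 50 mM the median interferon-response gene had 60.0% of its epithelial level, and the median epithelial marker 16.6%. In replicate 2 the medians were 20.4% and 5.88%, and in replicate 3 they were 78.5% and 57.4%. Of the 29 genes, 29, 27 and 24 were above the marker median in these 3 libraries, and 19, 28 and 27 in replicates 1, 2 and 3 at 5 mM. Most of the genes thus stood above the markers at both concentrations, so that these counts do not measure a change with glucose. At 5 mM the medians were 10.9%, 20.0% and 17% for the genes and 6.77%, 0.00975% and 0.0914% for the markers. In replicate 1 at 50 mM, 6 of the 29 genes exceeded the epithelial level itself, among them ZBP1 at 9.08 against 3.49 CPM and RTP4, a receptor transporter, at 18.3 against 8.50 CPM. IFI27, which was not among the 29, had 68.9 CPM in that stromal library and 17.3 CPM in the epithelial one. In other libraries, too, some of the 29 genes exceeded the epithelial level. They were 1 and 2 genes in replicates 2 and 3 at 50 mM, 3 in replicate 2 at 5 mM and 1 in replicate 3 at 1 ng/mL insulin. What the epithelial RNA contributes to the stromal differences was not tested beyond these values.

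**Figure D5:**
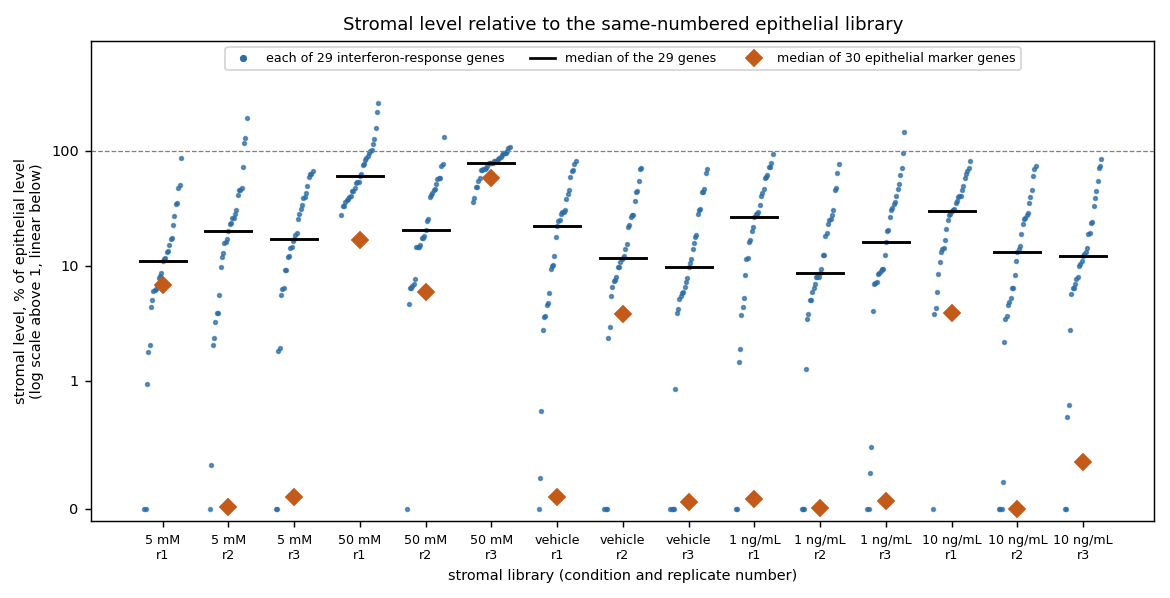
Level of 29 interferon-response genes (points, with their median as a bar) and median of 30 epithelial marker genes (diamond) in each stromal library, in percent of the same-numbered epithelial library, on a scale that is logarithmic above 1 and linear below. The bar lies above the diamond in all 15 stromal libraries, with the smallest ratios at 50 mM glucose replicate 3 (78.5% against 57.4%) and 5 mM replicate 1 (10.9% against 6.77%).

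Epithelial cells gave the opposite direction with smaller differences. At 50 mM glucose, 29 of the 36 genes had a negative log2 fold change (49.5% of all genes tested), with a median of -0.24 against 0.0061 over all genes, and none was called by edgeR (0.00% of all genes) or by DESeq2. An unadjusted p-value under 0.05 with a lower level was found for 5 of the 36 genes, against 0.751% of all genes, and 15 of the 36 were lower in 3 of 3 pairs, against 16.8% of all genes. ZBP1 had 15.1, 3.41 and 15.8 CPM at 5 mM and 3.49, 1.80 and 7.37 CPM at 50 mM, the lowest log2 fold change of the members (-1.38, SE 0.342, adjusted p = 0.804). CMPK2 had 43.4, 13.3 and 16.6 CPM at 5 mM and 17.8, 5.95 and 12.8 CPM at 50 mM (-0.94, SE 0.295). XAF1 had 46.7, 37.2 and 37.3 CPM at 5 mM and 26.9, 18.9 and 28.6 CPM at 50 mM (-0.71, SE 0.247). Of these, the values of XAF1 were separate between concentrations, as were those of DHX58, IRF9 and TRIM21, which makes 4 of 36 genes lower without overlap, against 3.68% of all genes. DHX58 had 87.5, 89.0 and 68.5 CPM at 5 mM and 58.2, 48.4 and 57.6 CPM at 50 mM (-0.57, SE 0.240), and IRF9 gave -0.56 (SE 0.240). UBA7 gave -0.75 (SE 0.231), IFI35 -0.68 (SE 0.265), IFI6 -0.58 (SE 0.236) and IRF7 -0.65 (SE 0.307). IFNAR1 had the highest value, 0.33 (SE 0.287), and IFNAR2, STAT2, IFIH1 and DDX58 gave 0.24, -0.15, -0.04 and -0.20.

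These epithelial values depend on replicate 2, whose library at 5 mM was low for most of the genes. DDX58 had 101, 20.8 and 55.8 CPM at 5 mM and 56.4, 32.6 and 42.4 CPM at 50 mM, so that replicates 1 and 3 were lower at 50 mM and replicate 2 was higher. In log2(CPM + 1), 35 of 36 genes were lower at 50 mM in replicate 1 and 30 in replicate 3, but 18 in replicate 2. Without replicate 2 the median log2 fold change was -0.45 and 13 of 36 genes were called, all lower at 50 mM, as were 1.01% of all genes. They were ADAR, CMPK2, DDX58, DTX3L, EIF2AK2, EPSTI1, IFI44, IFI44L, OAS2, UBA7, USP18, XAF1 and ZBP1. Without replicate 1 the median was -0.17, and IFIH1 (0.32) and DDX58 (0.085) changed sign. Stromal markers were higher at 50 mM in these epithelial libraries for 25 of 26 tested (median log2 fold change 0.71), and their part in the difference was not tested.

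The test of the difference between both responses, stromal minus epithelial, gave 34 positive values among the 36 genes (50.9% of all genes) with a median of 1.51, against 0.012 over all genes. None of the members was called (0.00% of all genes), 21 had an unadjusted p-value under 0.05 with a positive difference (5.86% of all genes), and the smallest adjusted p was 0.0749, for XAF1 (4.88, SE 0.429). XAF1 was called without replicate 1 (adjusted p = 0.00759) and without the count filter (0.0191). For 13 genes all 3 stromal pairs were higher and all 3 epithelial pairs lower at 50 mM, as for 2.84% of all genes. ZBP1 gave 4.31 (SE 0.675, adjusted p = 0.336), CMPK2 2.67 (SE 0.514, adjusted p = 0.495), DHX58 2.49 (SE 0.517, adjusted p = 0.534), IRF7 2.23 (SE 0.465, adjusted p = 0.534) and IFI35 1.53 (SE 0.375, adjusted p = 0.631). The highest value was 7.95, for IFI44, which had no stromal count at 5 mM glucose. IFI44, IFI44L and OAS2 were too low to be tested in stromal cells alone, and they entered this test through their epithelial level. IFNAR1 had the lowest value (-0.30, SE 0.337). The epithelial markers also differed in this test, with 29 of 29 positive and a median of 4.56.

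Insulin gave no call among these genes. In epithelial cells, no member was called at 1 ng/mL (0.00% of all genes), at 10 ng/mL (0.113%) or between the doses (0.00%) by edgeR, and none by DESeq2. At 1 ng/mL 32 of 35 genes tested had a negative log2 fold change (49.4% of all genes), with a median of -0.13, and 10 of these had an unadjusted p-value under 0.05 (1.47% of all genes). The difference came mainly from replicate 3, where 34 of 36 genes were lower in log2(CPM + 1), against 24 in replicate 1 and 15 in replicate 2. With replicate 3 left out the median was 5.4e-05. Without replicate 2, EIF2AK2, IFI44L, IFI6, IFIT5, UBA7 and USP18 were called lower, as were 0.205% of all genes, and 3 genes were called without replicate 1 and 3 without the count filter. IFIT5 had 46.7, 54.6 and 64.7 CPM with vehicle, 38.3, 47.8 and 48.3 CPM at 1 ng/mL and 38.7, 51.0 and 55.9 CPM at 10 ng/mL, lower in each replicate at both doses. EIF2AK2 had 49.5, 54.9 and 54.7 CPM with vehicle and 46.4, 52.2 and 35.8 CPM at 1 ng/mL. ZBP1 had the lowest value (-1.21) at a level of 1.29, 0.439 and 0.398 CPM, and UBE2L6 the highest (0.33). At 10 ng/mL, 25 of 35 genes had a negative log2 fold change (51.9% of all genes) with a median of -0.05, and 6 of them had an unadjusted p-value under 0.05 (3.59% of all genes). IRF9 had 25.5, 24.4 and 26.0 CPM with vehicle and 22.1, 21.8 and 22.7 CPM at 10 ng/mL, separate groups with a log2 fold change of -0.20 (SE 0.084, adjusted p = 0.680). Between 1 and 10 ng/mL, 27 of 34 genes had a positive log2 fold change (48.1% of all genes) with a median of 0.08, and 2 of them had an unadjusted p-value under 0.05 (2.07% of all genes), with RTP4 highest at 0.52 and IRF9 lowest at -0.08.

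In stromal cells, 29 genes were tested in each insulin comparison, and IFI44, IFI44L, IFIH1, OAS2, RTP4, XAF1 and ZBP1 were too low. None was called by edgeR at 1 ng/mL (0.00% of all genes), at 10 ng/mL (0.00%) or between the doses (0.0244%), or by DESeq2. The medians were -0.01, 0.06 and 0.08, and 0, 1 and 2 of the genes had a positive log2 fold change with an unadjusted p-value under 0.05, against 2.10%, 1.72% and 2.48% of all genes. PARP9 had the highest value at 1 ng/mL (0.48), from 4.20, 3.26 and 1.73 CPM with vehicle to 8.61, 1.95 and 2.82 CPM, and IFI35 the lowest (-0.38). At 10 ng/mL IFI6 had 24.6, 3.68 and 9.22 CPM, against 2.97, 3.44 and 10.2 CPM with vehicle and 9.54, 3.82 and 7.26 CPM at 1 ng/mL. IFI27 had 13.5, 0.965 and 1.54 CPM at 10 ng/mL against 4.11, 0.453 and 2.06 CPM with vehicle. Both were highest in replicate 1 at 10 ng/mL, the library with 406 CPM of epithelial markers, and IFI6 changed sign to -0.03 without that replicate. Across the epithelial insulin libraries IFI27 had 0.310 to 7.97 CPM and IFI6 22.8 to 67.5 CPM. The part of epithelial RNA in these stromal values was not tested. The insulin comparisons share libraries within a cell type and are not independent of each other. The difference between the responses of both cell types to 10 ng/mL insulin was called for no member (0.00% of all genes), 3 had a positive difference with an unadjusted p-value under 0.05 (2.53% of all genes), and the median was 0.20.

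Other genes of the interferon pathway were counted from a separate list of 22 protein-coding genes (receptor chains, kinases, further signaling genes, inhibitors and the sensing pathway). Of the 21 tested in the vehicle group, 9 were called higher (28.2% of all genes) and 2 lower (27.8% of all) in epithelial cells. Of 22 at 5 mM glucose, 3 were higher (10.8% of all) and 2 lower (10.7% of all), near the shares of all genes. IFNLR1, the chain that makes the receptor for lambda interferons specific, had 16.5, 19.7 and 13.5 CPM in epithelial and 0, 0.453 and 0 CPM in stromal cells of the vehicle group (log2 fold change 6.62, SE 0.654, adjusted p = 0.00208). Its partner chain IL10RB gave 1.41 (SE 0.133, adjusted p = 0.00191), and IRF3, which the sensing pathway activates, gave 0.95 (SE 0.104, adjusted p = 0.00259). At 5 mM glucose IFNLR1 gave 6.58 (SE 1.33, adjusted p = 0.0197) and CGAS, the cytosolic DNA sensor, 2.93 (SE 0.461, adjusted p = 0.0101). TLR3, the endosomal sensor of double-stranded RNA, went the other way from the cytosolic RNA sensors, with 1.13, 0.148 and 0.891 CPM in epithelial and 5.80, 6.29 and 4.15 CPM in stromal cells at 5 mM glucose (log2 fold change -3.26, SE 0.716, adjusted p = 0.0251). TLR3 was called higher in stromal cells in all 5 conditions. At 50 mM glucose 2 pathway genes were higher (6.57% of all genes) and 2 lower (11.0% of all) in epithelial cells. At 1 and 10 ng/mL insulin, 9 and 8 were higher (29.9% and 27.3% of all) and 3 and 2 lower (29.5% and 27.6% of all). None was called by edgeR in the 8 glucose and insulin comparisons within a cell type, in each of which 0 to 2 had an unadjusted p-value under 0.05.

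Of the 10 classical antiviral genes, 8 were called higher in epithelial cells in the vehicle group (28.2% of all genes) and 8 at 5 mM glucose (10.8% of all). None was called at 50 mM (6.57% of all higher and 11.0% lower), where 2 had an unadjusted p-value under 0.05 by edgeR. RSAD2, which encodes viperin, had 16.1, 40.9 and 47.0 CPM in epithelial and 0, 0.181 and 0 CPM in stromal cells of the vehicle group (log2 fold change 8.73, SE 0.442, adjusted p = 0.000904). MX1, a dynamin-like antiviral GTPase, gave 5.00 and OAS1X, a synthetase of the OAS family, 5.57 there. IFIT1, which like IFIT5 binds RNA ends, was called higher in stromal cells at 1 and 10 ng/mL insulin (-1.85 and -1.54), and the call at 10 ng/mL was lost without replicate 1 (adjusted p = 0.109) or 2 (0.0810). In epithelial cells at 1 ng/mL insulin all 10 were lower than with vehicle (median -0.65) with an unadjusted p-value under 0.05, but only 3 of them in 3 of 3 pairs, and none was called (smallest adjusted p = 0.243). RSAD2 was the only gene of these lists called in a comparison of treatments, lower at 10 ng/mL insulin than with vehicle in epithelial cells (-0.82, adjusted p = 0.000173). That call was lost without the replicate block (adjusted p = 1.00) and with DESeq2 (1.00).

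The members also varied together from library to library. In log2(CPM + 1), with each gene centred on its mean in each cell type and experiment, the Pearson correlation of a gene with the mean of the other members over the 30 libraries had a median of 0.783, and 33 of 36 genes were over 0.5. The values were highest for DDX58 (0.959), EPSTI1 (0.937) and USP18 (0.927) and lowest for IFNAR1 (0.374), IFI35 (0.379) and LGALS3BP (0.436). The centring removed the difference between cell types beforehand. Over the 15 libraries of each cell type, the medians were 0.781 in epithelial and 0.846 in stromal libraries. These libraries share depth, cell mixture and culture, and the correlations are given as a description. Among 12753 further genes centred in the same way, those most like the mean of the members included TRIM34 (0.872), CHMP5 (0.828), ZNFX1 (0.825), LGALS9 (0.823), LYPD6B (0.819), EML6 (0.815) and MXD1 (0.806), and 3 rows without a symbol. TRIM34 had 10.6, 11.4 and 11.7 CPM in epithelial and 3.32, 1.63 and 2.06 CPM in stromal cells of the vehicle group. In the cow gene table of RefSeq, PARP9, DTX3L and PARP14 lie next to each other, and neighbours correlated at 0.956 and 0.911. IFI44 and IFI44L, also neighbours, correlated at 0.965, while HERC5 and HERC6 correlated at 0.578. IFNAR1 and IFNAR2 lie on either side of IL10RB and correlated at 0.809.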

How the data were processed

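Gene-level read counts of 30 RNA-seq libraries were used as deposited. The authors trimmed the reads with Cutadapt, filtered them by quality, used Rsubread for alignment to Ensembl's Bos taurus assembly, retained unique hits and summarized them per gene with featureCounts, so the counts were not normalized. The libraries were made with a stranded kit. The strand setting of the counting is not given in the sources used here, so reads of overlapping genes may not be told apart, and genes of the OAS, IFIT, IFI44 and HERC families that resemble each other may lose reads that align to more than 1 place. The authors' comparison tables also hold fold changes and p-values, of which none were used; their gene names and gene types were.

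The members and the lists compared with them were chosen with earlier results of these data known. All members are described by role. Named in each main comparison were the 6 with the smallest p-value, those with the highest and the lowest log2 fold change, and IFNAR1, IFNAR2, STAT2, IRF9, IRF7, IFIH1, DDX58 and DHX58; others were named for their role. CPM were counts scaled to a library total of 1000000. Each comparison used the 6 libraries of its groups, or 12 for the difference between responses, in edgeR 4.0.16 (R 4.3.3) with TMM normalization, filterByExpr, the quasi-likelihood test and Benjamini-Hochberg adjustment over all genes tested. The replicate number was a block, since the methods of the study state a paired design. Deviations of same-numbered libraries correlated at 0.187 to 0.865 in the 8 treatment comparisons and at 0.0327 to 0.526 in the 5 cell type comparisons. The fits were tested on simulated data. Alternatives were DESeq2 1.42.0, its size factors, no filter, no replicate block and leaving out each replicate. Figures used matplotlib 3.10.9. No sequence or coordinate is given.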

Additional observations from a re-analysis of the deposited data

Results flagged for a closer look

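For 13 genes every stromal pair was higher and every epithelial pair lower at 50 mM than at 5 mM glucose, as for 2.84% of all protein-coding genes tested. The differences between these responses (stromal minus epithelial, log2 scale) were 0.50 for STAT2, 2.23 for IRF7, 1.25 for IRF9, 2.49 for DHX58, 4.31 for ZBP1, 0.66 for ADAR, 2.04 for UBA7, 2.87 for USP18, 1.79 for TRIM21, 4.88 for XAF1, 2.92 for IFI6, 1.53 for IFI35 and 2.67 for CMPK2. The opposite pairs themselves were not tested as a pattern, and the test of each difference called none of the 13 genes after adjustment. Stromal libraries at 50 mM held more epithelial marker RNA, as given above, and its part in these differences was not tested. With 10 ng/mL insulin, ADAR was lower in every epithelial pair and higher in every stromal pair (difference 0.196), which was not called either.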

How the results depend on the processing

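Of 103 counts of genes called under an alternative, 84 stayed within 1.5 times the main count. Without the replicate block no gene was called between cell types at 50 mM glucose, against 1 with it, and the block changed no other count by over 1.5 times. The DESeq2 Wald test called 7 genes for stromal glucose and 12 between cell types at 50 mM. Without the low-count filter, 3 genes were called in epithelial cells at 1 ng/mL insulin, 1 between the insulin doses in epithelial cells, 2 between them in stromal cells (IFI27 and IFI6), 2 between cell types at 50 mM glucose and 1 (XAF1) for the difference between the glucose responses. With 1 replicate left out, the counts were 0 to 13 for epithelial glucose, 0 to 6 for epithelial 1 ng/mL insulin, 0 to 1 for epithelial 10 ng/mL and between the epithelial doses, 0 to 2 between the stromal doses, 0 to 4 between cell types at 50 mM glucose and 0 to 1 for each difference between responses. Between cell types they were 17 to 24 at 5 mM glucose, 25 to 27 with vehicle, 22 to 24 at 1 ng/mL and 24 to 27 at 10 ng/mL insulin. Of 1148 values of single genes, 13 changed sign, and the cause was not tested. For epithelial glucose, IFNAR2 gave -0.0030 without the block. With 1 replicate left out, the log2 fold changes for epithelial glucose ranged from -0.10 to 0.54 for IFNAR2, from -0.41 to 0.32 for IFIH1 and from -0.59 to 0.085 for DDX58. IFNAR1 for stromal glucose ranged from -0.034 to 0.13 and was also negative (-0.0059) without replicate 2. Between the epithelial insulin doses IRF9 ranged from -0.21 to 0.11 and RTP4 from -0.088 to 1.33. In stromal cells PARP9 ranged from -0.054 to 0.98 at 1 ng/mL and IFI6 from -0.030 to 1.66 at 10 ng/mL. Between cell types, IFNAR1 ranged from -0.55 to 0.15 and IFIT5 from -0.59 to 1.13 at 5 mM, and ADAR from -0.027 to 0.15 with vehicle. In the insulin experiment, stromal levels of IFI44, IFI44L, IFIH1, OAS2, RTP4, XAF1 and ZBP1 mostly lay at or near the 3-count limit. The same held for IFI44, IFI44L, OAS2, XAF1 and ZBP1 at 5 mM glucose. The size of their differences is therefore limited by depth. At 50 mM glucose stromal XAF1 reached 15.7 CPM.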
